A study of Mus musculus with 4 samples.

Results

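The genes described here were Cd4, Cd8a and Cd8b1, which encode the coreceptors of αβ T cells. They were chosen by name, as 3 of the 32285 genes listed in each of 4 single-cell RNA-seq count tables of mouse thymocytes. Each library held the 3′ ends of transcripts, counted with unique molecular identifiers (UMIs, 1 per captured molecule) in droplets of the 10x Genomics Chromium system. Of the 4 libraries, 2 came from control mice carrying loxP-flanked Tox4 alleles (Tox4 f/f) and 2 from conditional knockout (cKO) mice that also carried Lck-Cre (Tox4 f/f;Lck-Cre). Tox4 encodes a nuclear HMG-box protein that binds a PP1 phosphatase complex. The floxed alleles were therefore shared by both groups, and only the Cre transgene differed. Cre was driven by the proximal promoter of Lck, which is active in T lineage cells from the double negative (DN) stage on, so cells outside the T lineage were not targeted. The floxed allele was made on the C57BL/6 background, and the study used gender-matched littermates of 6 to 8 weeks. It describes the sequenced animals as 2 pairs, but the labels give neither litter nor sex for a library and do not say which libraries form a pair.

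CD4 is a single-chain coreceptor that binds MHC class II, whereas CD8 on αβ T cells is a pair of the chains encoded by Cd8a and Cd8b1 and binds MHC class I. CD4 and CD8α both carry the kinase LCK to an engaged T cell receptor (TCR), and the CD8β chain strengthens the coreceptor function of CD8. Thymocytes begin without either coreceptor as DN cells, then express both as double positive (DP) cells, first as dividing DP blasts (DPbla) and then as DP cells that rearrange the TCR α chain (DPre). DP cells that receive a TCR signal (DPsel) go on to keep CD4 alone or CD8 alone as single positive (SP) cells. The transcription factor ThPOK (Zbtb7b) serves the CD4 lineage, and RUNX3, which silences Cd4, serves the CD8 lineage.

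All 3 genes lie on mouse chromosome 6 (build GRCm38, GENCODE M21). Cd8b1 (ENSMUSG00000053044) spans chr6:71322788-71337494 on the plus strand, and Cd8a (ENSMUSG00000053977) spans chr6:71373427-71379173 on the same strand. The pair is separated by 35932 bases with 4 annotated genes between them, 3 of them non-coding RNAs and 1 a processed pseudogene. Cd4 (ENSMUSG00000023274) lies far from that pair, at chr6:124864692-124888221 on the minus strand. RefSeq sequence directly upstream of a gene start was found for 1 of the 3 genes, Cd8a, and is printed because Cd8a carried the largest difference between the genotypes. These are the 250 bases before the start of Cd8a (GRCm38.p6, chr6:71373177-71373426, plus strand), 5′ to 3′, with each match to the E-box letters CANNTG in capitals:
Cd8a upstream: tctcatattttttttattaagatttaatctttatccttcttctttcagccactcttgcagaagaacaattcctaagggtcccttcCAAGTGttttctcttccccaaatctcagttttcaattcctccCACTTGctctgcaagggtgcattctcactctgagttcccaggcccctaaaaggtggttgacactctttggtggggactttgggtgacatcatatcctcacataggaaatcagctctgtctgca
The capitals begin 165 and 123 bases before the start. The RUNX letters TGTGGT, the Ets letters CCGGAA and the GATA letters AGATAA were searched on both strands and had no match in this window. Of 32851 RefSeq promoters of the same length, 66.2% held the E-box letters, 14.0% the RUNX letters, 12.0% the Ets letters and 9.99% the GATA letters, so a match in 1 promoter is only a description.

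The deposited tables held 57354 cells with 42716798 to 62007453 UMIs per library, and 33414 cells were kept, 5648 to 12027 per library. More droplets exceeded the limit of 10% mitochondrial UMIs in the libraries of replicate number 1 (48.3% in control 1 and 46.1% in cKO 1) than in those of number 2 (20.6% and 23.1%), so this sign of cell quality followed the replicate number and not the genotype. Any pair of libraries shared 36 to 70 cell barcodes, at most 0.555% of a library. Clusters were made with the 3 coreceptor genes left out and were named from other markers, so the coreceptors did not decide the stage of a cell. In this way 28038 cells (83.9%) fell in 6 stages, with 561 DN-like, 3618 DPbla-like, 16855 DPre-like, 4585 DPsel-like, 1524 CD4SP-like and 895 CD8SP-like cells. Each marker of a stage's own list was present in that stage in every library. The lists named the stages, so this is no separate check of the names, and all 12 DPbla markers reached 5 CPM in every stage. These names were rebuilt from the counts, so the classes may differ from those of the study. Between 8.78% and 15.4% of the kept cells of a library stayed unnamed, among them a cluster with a median of 836 UMIs and RNA of dividing cells that took 3.17% and 3.31% of the control cells and 7.32% and 5.72% of the cKO cells. Levels are given as a gene's UMIs per 1000000 of the stage's summed UMIs (CPM). With 1 tag counted per captured 3′ end, these levels need no scaling by transcript length, although the capture of different genes may differ.

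Cd4, the MHC class II coreceptor, had its highest level in DPre. In DPre it stood at 749.6 and 722 CPM in the control libraries and at 626 and 731 CPM in the cKO libraries. In the class named CD4SP from other RNA markers, Cd4 was at 267 and 230.4 CPM in control and 265 and 297 CPM in cKO. Thus the level of Cd4 in CD4SP cells was far below that in DPre in every library. DPsel (247 to 282 CPM), CD4SP (230.4 to 297 CPM) and DPbla (189 to 301 CPM) overlapped, so that the order of these 3 stages was not settled by 4 libraries. CD8SP cells held 60.4 to 71.2 CPM of Cd4 and DN cells 18.1 to 58.04 CPM, each below every library of the stage before it in the order.

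Cd8a, the chain that carries LCK, was also highest in DPre. Its DPre level was 2008 and 1524 CPM in control and 1225 and 1118 CPM in cKO. DPbla came next with 1515 and 1178 CPM in control and 890.4 and 736 CPM in cKO, below DPre within each of the 4 libraries although the ranges overlapped. DPsel (459 to 679 CPM) and CD8SP (472 to 631 CPM) overlapped, followed by CD4SP (112 to 260.4 CPM) and DN (55.1 to 154 CPM). The CD8SP class, named from RNA with no protein in these counts, therefore held a smaller share of Cd8a UMIs than DPre in every library. Its CD8SP markers summed to 1677, 1436, 1655 and 1753 CPM (control 1, control 2, cKO 1 and cKO 2). The CD4SP markers summed to 1595, 1982, 1821 and 1747 CPM in the same class.

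Cd8b1, the second chain of the αβ coreceptor, was the most abundant of the 3 transcripts in DPre. It stood at 3034 and 2727 CPM in control and 2558 and 2307 CPM in cKO. The DPbla level was 1059 to 1783 CPM, the CD8SP level 744 to 1029 CPM and the DPsel level 655 to 772 CPM. CD8SP was above DPsel within each library for Cd8b1, whereas Cd8a was higher in CD8SP than in DPsel in 1 of the 4 libraries. Cd8b1 was 178 to 322 CPM in CD4SP and 67.2 to 159 CPM in DN.

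**Figure D1:**
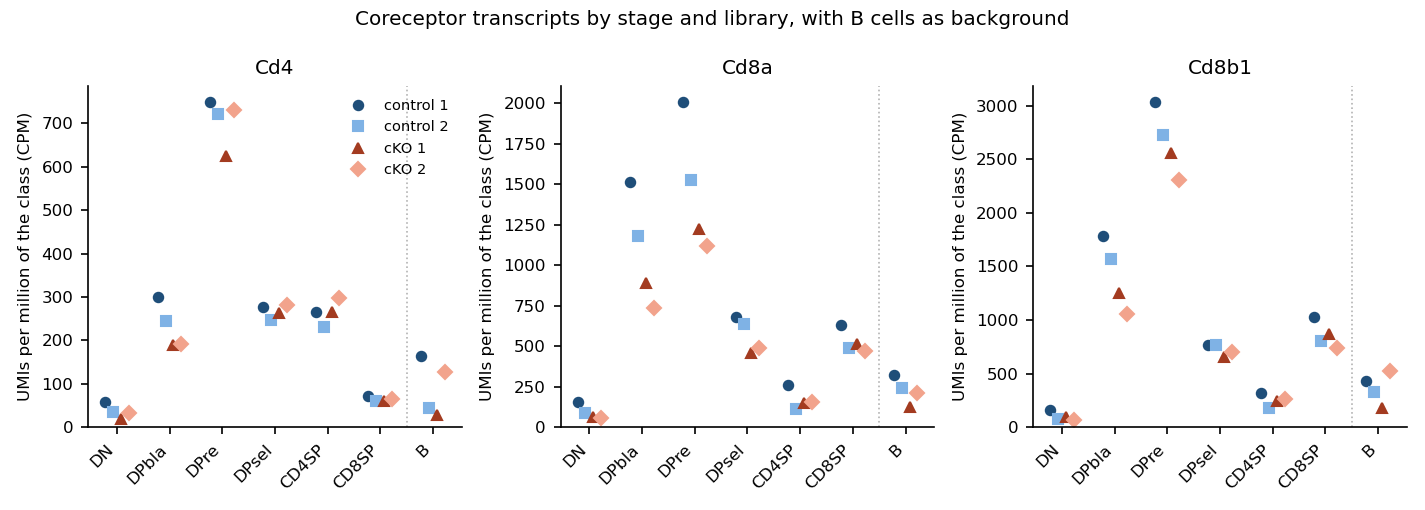
Level of Cd4, Cd8a and Cd8b1 (vertical axis, CPM of the class, from 0) in the 6 thymocyte stages and in B cells (horizontal axis), with 1 point per library, blue for control and red for cKO. All 3 genes peak in DPre, where Cd8a separates the control libraries (2008 and 1524 CPM) from the cKO libraries (1225 and 1118 CPM), and B cells show the background from free RNA.

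The order of the stages depended on the scale. DPbla cells held more UMIs of all genes than DPre cells, and counted per cell the highest level of Cd8a was in DPbla, with a mean over libraries of 9.81 UMIs per cell against 4.22 in DPre. Cd8b1 had 12.9 UMIs per cell in DPbla and 7.57 in DPre. Cd4 had 2.10 and 1.99 UMIs per cell, and this pair of stages did not differ beyond the spread of the libraries. Hence Cd8a and Cd8b1 were highest in DPre as a share of the RNA and highest in DPbla per cell.

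B cells, which do not express CD8, gave the background from RNA free in the droplets. Their 153 droplets held 124 to 321 CPM of Cd8a, 179.7 to 522 CPM of Cd8b1 and 27.6 to 163 CPM of Cd4. Macrophage droplets held more, with 704 and 927 CPM of Cd8a in control and 392 and 586 CPM in cKO, 635 to 1681 CPM of Cd8b1 and 255 to 527 CPM of Cd4. In DPre each of the 3 genes lay above both kinds of cell in every library. As CPM, the ranges of all 3 genes in DPbla and DPsel, of Cd8a and Cd8b1 in CD8SP and of Cd4 in CD4SP overlapped those of the macrophage droplets. Within a library, DPbla was above the macrophages in 4 of 4 for Cd8a, in 2 of 4 for Cd8b1 and in 1 of 4 for Cd4, and both cKO values of Cd4 in DPbla were below every macrophage value. For Cd8a, DPsel and CD8SP were each below the macrophages in 3 of 4 libraries. Counted per cell, with depth not held equal, DPbla held 6.08 to 13.9 Cd8a, 8.76 to 16.4 Cd8b1 and 1.58 to 2.77 Cd4 UMIs. Macrophages held 0.464 to 2.12, 0.752 to 3.84 and 0.302 to 1.14. CD8SP cells (3.26 to 6.23 Cd8a and 5.14 to 10.2 Cd8b1 UMIs) and CD4SP cells (1.30 to 1.64 Cd4 UMIs) were above these ranges too, whereas DPsel overlapped them for all 3 genes. The DN values of Cd8a (55.1 to 154 CPM) and the CD4SP values of Cd8a (112 to 260.4 CPM) were at or near the B cell background and are not read as expression. Background Cd8a was itself at 321 and 242 CPM in the control B cells and at 124 and 211 CPM in the cKO B cells. Thus Cd8a was lower in both cKO libraries than in both controls also in B cells and macrophages, which Lck-Cre does not target. Their cKO means were at 59.5% and 60.0% of control. In dendritic and erythroid cells, also outside the T lineage, the groups overlapped, with cKO means at 116% and 123% of control. These rest on 7 to 46 and on 3 to 33 Cd8a UMIs per library. The part of free RNA in the genotype differences of Cd8a was not tested.

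Tox4, the targeted gene, was still counted in the cKO libraries. In DPre it was at 77.2 and 82.6 CPM in control and 64.0 and 66.9 CPM in cKO (log2 fold change -0.25, SE 0.11, edgeR adjusted p = 0.293). Because 3′ tags can lie outside the deleted exons, this level does not check the deletion. Tox4 did not pass the edgeR test in any of the 6 stages.

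The comparison of cKO with control asked whether loss of Tox4 went along with a change in coreceptor transcripts at a given stage. Counts were summed per library and stage and tested with edgeR's quasi-likelihood test, with p-values adjusted over all genes tested in the stage and a gene called at an adjusted p under 0.05. With 2 libraries per group and no label that ties a library to a pair, a litter or a preparation, the samples were fitted unpaired and the p-values measure the spread between these 4 libraries. Cd8a was called lower in cKO in DPbla and DPre, Cd8b1 and Cd4 were called lower in DPbla, and edgeR with genotype as the only term called no member in DPsel, CD4SP, CD8SP or DN. At an unadjusted p under 0.05 these 4 stages held Cd8a in DPsel and all 3 genes in DN, and DESeq2 called Cd8a in DPsel (adjusted p = 0.0155). In DPbla 2.96% of the 10835 genes tested were called in either direction and 1.1% were called lower in cKO, and in DPre 1.75% of 11751 were called and 0.732% were lower. In DPbla the markers of other stages moved with these calls, as the summed level of the 9 DPre markers was 3705 and 3329 CPM in control and 3110.1 and 3039 CPM in cKO, and that of the 12 DPbla markers 8157 and 7844 against 7469 and 7004 CPM. In DPre the DPbla markers stood at 389 and 263 CPM in control and 507 and 438 CPM in cKO. The part of these shifts in the coreceptor values was not tested. The call rate was 0.212% in DPsel, 0.188% in CD4SP, 0.607% in CD8SP and 0.0939% in DN.

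For Cd8a, both cKO libraries lay below both control libraries in DPbla, DPre and DPsel. In DPbla the values given above came to a log2 fold change of -0.68 (SE 0.13, edgeR adjusted p = 0.00673), with a cKO mean at 60.4% of the control mean. In DPre the log2 fold change was -0.55 (SE 0.11, edgeR adjusted p = 0.0266), with a cKO mean at 66.3% of control. The call in DPre was lost without control 1 (-0.35, edgeR adjusted p = 0.251) and without cKO 2 (-0.48, adjusted p = 0.112), and that in DPbla without cKO 2 (-0.54, adjusted p = 0.261). Since the mitochondrial share followed the replicate number, the values within each number matter here. Within number 1 Cd8a in DPre went from 2008 CPM in control to 1225 CPM in cKO, and within number 2 from 1524 to 1118 CPM, so it was lower in cKO within both numbers.

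In DPsel, Cd8a stood at 679 and 638 CPM in control and 459 and 492 CPM in cKO (log2 fold change -0.46, SE 0.10, edgeR adjusted p = 0.0750). The groups did not overlap and the value missed the threshold, which 9 of 18 alternative settings passed, none of them a fit that left out 1 library. The summed level of the 9 DPsel markers was also lower in both cKO libraries of this stage (3467 and 3293 CPM in control, 2971 and 2791 CPM in cKO) and that of the 12 DPbla markers higher (296 and 234 against 383 and 378 CPM), and their part in the value was not tested. In CD8SP, Cd8a was at 631 and 489 CPM in control and 511 and 472 CPM in cKO, and the libraries overlapped (-0.21, SE 0.12, edgeR adjusted p = 0.713). Without control 1 this value was -0.025 and without control 2 -0.37. In CD4SP the difference was -0.31 (SE 0.21, adjusted p = 0.809), where control 1 alone held 260.4 CPM against 112 in control 2, and without control 1 the sign turned to 0.38. In DN the value was -0.97 (SE 0.21, edgeR adjusted p = 0.0721), on 81 to 119 UMIs of Cd8a per library and at the level of the B cell background. Leaving out 1 library gave -1.34 to -0.59 in DN, with calls without control 2 (edgeR adjusted p = 9.3e-05) and without cKO 1 (adjusted p = 0.00253).

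Cd8b1, the partner chain, was called lower in cKO in DPbla. There it was at 1783 and 1572 CPM in control and 1256 and 1059 CPM in cKO, a log2 fold change of -0.48 (SE 0.12, edgeR adjusted p = 0.0299). In DPre both cKO libraries were again below both controls, but the difference of -0.20 (SE 0.09, edgeR adjusted p = 0.316) was not called, with values from -0.29 without cKO 1 to -0.12 without cKO 2. The values were -0.17 in DPsel and -0.20 in CD8SP, and 0.02 in CD4SP, with edgeR adjusted p-values of 0.630, 0.712 and 0.987. The CD8SP value ranged from -0.36 without control 2 to -0.028 without control 1. The DPbla call of Cd8b1 was lost when any 1 library other than control 2 was left out, with fold changes from -0.61 to -0.37 over the 4 such fits.

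Cd4 was called lower in cKO in DPbla. Its level there was 301 and 245 CPM in control and 189 and 192 CPM in cKO, a log2 fold change of -0.47 (SE 0.11, edgeR adjusted p = 0.0222). In DPre the control and cKO libraries overlapped (log2 fold change -0.08, SE 0.09, adjusted p = 0.764). The values were 0.08 in DPsel, 0.15 in CD4SP and -0.09 in CD8SP, with edgeR adjusted p-values of 0.884, 0.851 and 0.939. The DPbla call of Cd4 was lost when any 1 library other than control 2 was left out, with fold changes from -0.57 to -0.34.

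**Figure D2:**
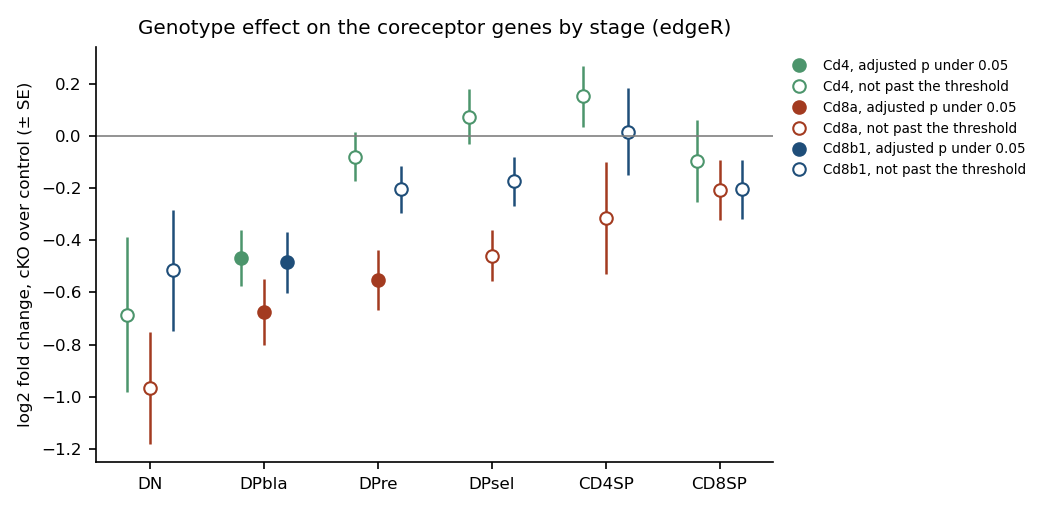
Genotype effect on each coreceptor gene (vertical axis, log2 fold change of cKO over control from edgeR, with bars of 1 SE, 2 libraries per group) in the 6 stages (horizontal axis), with filled points for an adjusted p under 0.05. Cd8a lies below 0 in all stages and is filled in DPbla and DPre, whereas Cd4 is filled in DPbla and lies near 0 in DPre (-0.08) and DPsel (0.08).

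When DPbla, DPre and DPsel were summed as DP cells, 5.91% of 12790 genes were called in either direction and 2.16% were called lower in cKO. The mix of stages in this sum moved with the genotype, since DPbla held 524 of 4223 and 753 of 6764 control DP cells and 869 of 4872 and 1472 of 9199 cKO DP cells, and its part in the values of the sum was not tested. Cd8a was at 1591 and 1248 CPM in control and 962 and 865 CPM in cKO (log2 fold change -0.58, SE 0.11, edgeR adjusted p = 0.00854). With genotype as the only term, edgeR did not call Cd8b1 (-0.31, SE 0.09, adjusted p = 0.0569) or Cd4 (-0.23, SE 0.09, adjusted p = 0.160) in this sum. With the replicate number as a block edgeR called both, and DESeq2 without a block called Cd8b1 (adjusted p = 0.0243).

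The 10 DP clusters large enough to compare were then taken one by one. Both cKO libraries lay below both controls in 9 of 10 clusters for Cd8a, in 9 of 10 for Cd8b1 and in 4 of 10 for Cd4. Over all gene and cluster pairs of at least 20 CPM, this held in 24.8%. The cluster that stood apart for Cd8a and Cd8b1 was the later of the 2 DPsel clusters, led by Itm2a, Il7r and Bcl2. Its Cd8a level was 389 and 298 CPM in control and 334 and 309 CPM in cKO, whereas the earlier DPsel cluster, led by Cd5, Egr1 and Nab2, held 1082 and 962 CPM in control and 675 and 671 CPM in cKO. For Cd8a the control and cKO libraries overlapped in the later cluster and not in the earlier one. Cd8b1 in the later cluster was at 409 and 375 CPM in control and 414 and 409.5 CPM in cKO, and Cd4 at 267 and 229 CPM against 277 and 275 CPM, so both genes were slightly higher in each cKO library. The difference between the clusters was not tested.

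The level of Cd8a differed among the 4 DPbla clusters. As CPM it was highest in the cluster led by the mitotic genes Cdc20 and Ccnb2, at 2062 and 1686 CPM in control and 1433 and 1269 CPM in cKO. The mitotic cluster was also the one of the 4 with the highest score for DPre markers. Cd8a was lower in the cluster led by the replication genes Hells and Dtl, at 1116 and 867 CPM in control and 589 and 526 CPM in cKO. The cluster led by Mki67 and Prc1 held 1669.7 and 1424 CPM in control and 1098 and 919.9 CPM in cKO, and that led by Pclaf and Rrm2 1019 and 796 against 687 and 542 CPM. Per cell the order differed, with 18.2, 15.01, 12.4 and 8.39 Cd8a UMIs (control 1, control 2, cKO 1 and cKO 2) in the Mki67 cluster and 14.2, 9.503, 9.18 and 6.63 in the mitotic cluster. Cd4 in the mitotic and the replication cluster was 458, 400.8, 384 and 410.0 CPM (control 1, control 2, cKO 1 and cKO 2) and 192, 183, 108 and 107 CPM. The mitotic cluster made up 33.2% and 25.1% of control DPbla cells and 22.4% and 20.9% of cKO DPbla cells, and the replication cluster 17.2% and 23.0% against 25.4% and 29.96%, so the mix of clusters moved with the genotype. With equal numbers of cells taken from every cluster, which also left out cells and gave 91 called genes in place of 321, the DPbla fold change was -0.56 for Cd8a (edgeR adjusted p = 0.0243), -0.37 for Cd8b1 (adjusted p = 0.114) and -0.29 for Cd4 (adjusted p = 0.234).

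Whether the genotype effect differed between DPbla, DPre, DPsel, CD4SP and CD8SP was tested directly as an interaction of genotype and stage, for which 2.84% of genes were called. Cd4 was called (edgeR adjusted p = 0.000696), and its effect in DPbla was 0.38 lower on the log2 scale than in DPre (-0.38, SE 0.08, adjusted p = 0.0209). This difference was no longer called without control 1 (-0.28, edgeR adjusted p = 0.240), cKO 1 (-0.46, adjusted p = 0.0895) or cKO 2 (-0.29, adjusted p = 0.579). With equal numbers of cells per cluster the same difference was -0.20 (adjusted p = 0.595), while the test over all 5 stages gave an adjusted p of 0.0457. Without cKO 2 the test over the stages gave 0.0995. For Cd8a (adjusted p = 0.297) and Cd8b1 (adjusted p = 0.290) no dependence on the stage was called, although leaving out control 1 gave 0.00138 and 0.00451. The Cd8a effect in CD8SP was 0.36 higher than in DPre (SE 0.15, adjusted p = 0.434), so that a smaller effect in CD8SP cells was not established.

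The unequal change of the 2 CD8 chains was followed as the ratio of Cd8a to Cd8b1 UMIs, which does not depend on the total of the stage. In DPre the ratio was 0.662 and 0.559 in control and 0.479 and 0.485 in cKO, with 95% counting intervals of 0.650 to 0.674, 0.549 to 0.569, 0.468 to 0.489 and 0.475 to 0.494 (exact binomial). The cKO libraries nearly coincided, whereas the control libraries differed from each other by more than their counting error. The log2 ratio was -0.72 ± 0.17 in control and -1.05 ± 0.01 in cKO (SD, n = 2 each), a difference of -0.34 with a two-sided exact permutation p of 0.333, the smallest that 2 libraries against 2 can give.

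The same direction held in DPsel, with ratios of 0.880 and 0.828 in control and 0.6999 and 0.7003 in cKO. In DPbla the ratios were 0.850 and 0.749 in control and 0.709 and 0.695 in cKO. Within DPbla the groups overlapped in the mitotic cluster (0.753 and 0.613 in control, 0.623 and 0.632 in cKO). They also overlapped in the cluster led by Pclaf and Rrm2 (0.823 and 0.710 against 0.768 and 0.695), but not in the Mki67 and replication clusters. The mix of these clusters moved with the genotype, and its part in the ratio was not tested. The CD8SP ratios were 0.613 and 0.609 in control and 0.590 and 0.635 in cKO, and here the groups overlapped (difference of log2 means 0.00). In CD4SP the ratios were 0.810 and 0.629 in control and 0.602 and 0.580 in cKO. In cells that Lck-Cre does not target, the ratio of background UMIs was also lower in both cKO libraries in B cells (0.741 and 0.731 in control, 0.692 and 0.404 in cKO, on 18 to 63 Cd8a UMIs) and in erythroid cells (0.913 and 1.0 against 0.516 and 0.727, on 3 to 33 Cd8a UMIs), whereas the macrophage ratios overlapped (0.653 and 0.551 against 0.617 and 0.483). The dendritic cell ratios overlapped with a higher cKO mean (0.226 and 0.385 against 0.583 and 0.357, on 7 to 46 Cd8a UMIs). Across stages the ratio was higher in DPbla and DPsel than in DPre in every library, so DPre cells held the least Cd8a per Cd8b1 among the DP stages. Cd4 UMIs per Cd8a UMI in DPre were 0.373 and 0.474 in control and 0.511 and 0.654 in cKO, and these groups did not overlap. The macrophage values moved alike without overlap, at 0.404 and 0.537 in control and 0.651 and 0.900 in cKO, whereas those of B cells and dendritic cells overlapped. In erythroid cells the value was higher in both cKO libraries, on 0 to 9 Cd4 UMIs. The part of free RNA in the DPre value was not tested.

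**Figure D3:**
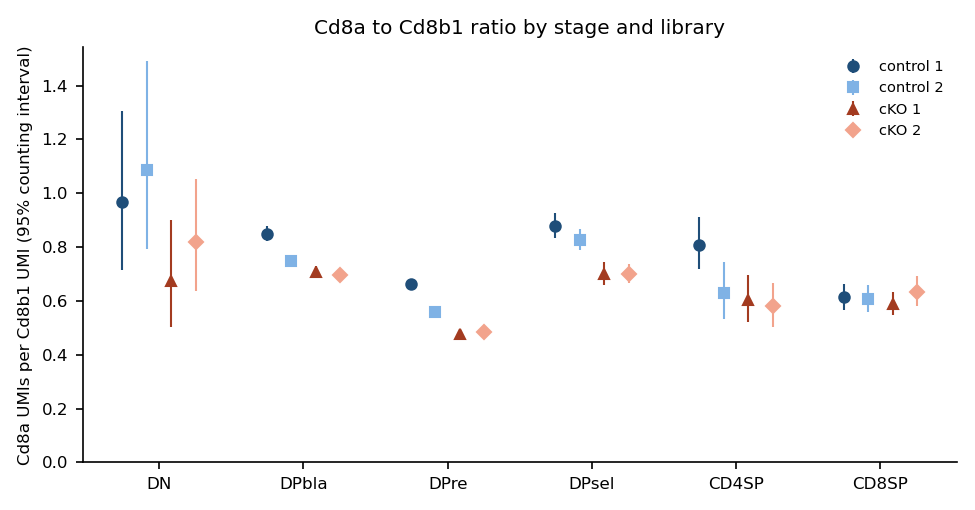
Ratio of Cd8a UMIs to Cd8b1 UMIs (vertical axis, from 0, with 95% counting intervals) by stage (horizontal axis), with 1 point per library, blue for control and red for cKO. In DPre, DPsel and DPbla both cKO points lie below both control points, whereas in CD8SP the 4 points lie between 0.590 and 0.635.

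Coexpression in single cells was compared after each cell was thinned at random to 1000 UMIs, so that depth was equal, which left 2832 to 5844 DPre cells per library and left out 76 to 225 shallower ones. At that depth Cd8a was found in 85.1% and 76.1% of control DPre cells and in 68.2% and 66.4% of cKO DPre cells. Cd8b1 was found in 94.7% and 91.0% against 90.5% and 89.1%, and Cd4 in 52.9% and 49.1% against 46.5% and 50.7%. For Cd8a each library was above the shares in B cells (19.2% to 23.8%) and macrophages (45.1% and 52.6% in control, 25.2% and 42.4% in cKO) thinned alike, of which the unthinned medians were 2939 to 5614 and 1378 to 2540 UMIs. The lower Cd8a in cKO was seen both in the share of cells and in the counts per cell, since cells with at least 6 Cd8a UMIs made up 1.94% and 0.695% of control DPre cells and 0.367% and 0.120% of cKO DPre cells.

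All 3 transcripts were found together in 42.4% and 34.6% of control DPre cells and in 28.7% and 29.9% of cKO DPre cells at 1000 UMIs. The 95% Wilson intervals were 40.6% to 44.3%, 33.3% to 36.0%, 27.1% to 30.3% and 28.8% to 31.1%, covering counting error only. The mean share was 38.5% ± 5.53 in control and 29.3% ± 0.904 in cKO (SD, n = 2 each), a difference of -9.23 percentage points with a two-sided exact permutation p of 0.333. Without thinning the difference was -11.3 points. Cells with Cd4 and Cd8b1 but no Cd8a UMI made up 7.63% and 10.4% in control and 13.5% and 15.4% in cKO. Cells with Cd8b1 alone made up 6.43% and 11.4% in control and 15.1% and 14.1% in cKO, so both classes without Cd8a were larger in each cKO library. DPre cells with no UMI of any of the 3 were 0.459% and 0.998% in control and 1.67% and 2.34% in cKO.

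**Figure D4:**
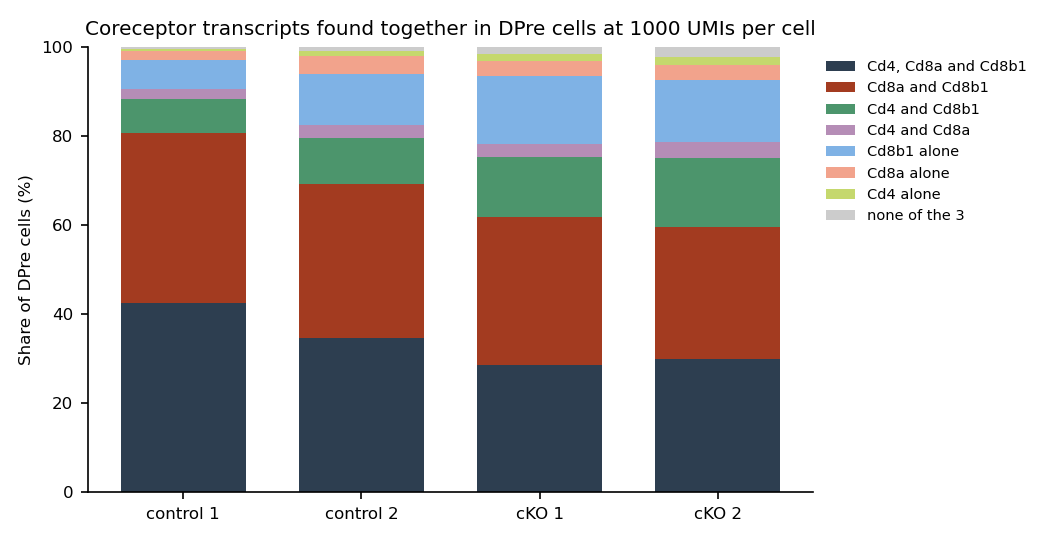
Share of DPre cells (vertical axis, in percent) by which of the 3 coreceptor transcripts were found at 1000 UMIs per cell, stacked for each library (horizontal axis). The lowest block, cells with all 3, is 42.4% and 34.6% in control and 28.7% and 29.9% in cKO, while the block with Cd4 and Cd8b1 but not Cd8a is larger in cKO.

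Whether 2 genes shared cells was described as the share of cells with both over the product of the separate shares. In DPre nearly all cells held Cd8b1 and most held Cd8a, which leaves this value little room above 1, so it is not read there. In DPsel, cells with both Cd8a and Cd8b1 were 1.45 to 1.57 times the product, and in CD4SP 1.73 to 3.20 times. The same value was 2.21 to 3.33 in B cells and 1.37 to 1.81 in macrophages, so those of DPsel and CD4SP are not read above background. The control and cKO libraries overlapped in both stages.

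Single positive cells were set against their background at the same depth. Cd8a was found in 37.8% to 43.6% of CD8SP cells and Cd8b1 in 46.7% to 53.0%, with control and cKO libraries overlapping for each. Both ranges were above those of B cells (19.2% to 23.8% and 15.4% to 38.7%) but within those of macrophages (25.2% to 52.6% and 35.8% to 60.7%). Cd4 was found in 20.5% to 27.3% of CD4SP cells, and in 4.81% to 7.14% of CD8SP cells. B cells held Cd4 in 29.0% of control 1 droplets and in 0% to 4.76% of those of the other 3 libraries. Macrophages held it in 20.8% to 39.3%, so at this depth the Cd4 share in CD4SP cells was not above that of macrophages. For the 0 of 26 B cells in cKO 1, a limit of 3 counts allows a share of cells with a Cd4 UMI of up to 11.5%, and the Wilson interval reaches 12.9%. The Cd8a share in CD4SP cells (9.497% to 16.7%) was below that in B cells and is not read as expression. Without thinning, where depth was not equal, Cd4 was found in 65.6% to 73.4% of CD4SP cells and in 20.2% to 49.2% of macrophages. Cd8a was then found in 73.7% to 88.1% of CD8SP cells against 28.1% to 50.3% of macrophages, and Cd8b1 in 77.5% to 89.3% against 36.7% to 54.5%.

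The coreceptors work with the TCR, the CD3 chains and the proximal kinases, for which 20 genes were listed. In DPbla 1 of the 20 was called, against 2.96% of all genes tested. It was Cd247, the CD3ζ signalling chain, at 286 and 252 CPM in control and 207 and 187 CPM in cKO (log2 fold change -0.40, SE 0.10, edgeR adjusted p = 0.0449). In the sum of DP cells, where 5.91% of all genes were called, 3 of 20 were called, all lower in cKO, namely Cd247 (-0.37), the TCR α constant gene Trac (-0.43) and Cd5, an inhibitory receptor of TCR signalling that was also a DPsel marker (-0.47). In the other 5 stages edgeR called none of the 20, with 2 to 5 per stage at an unadjusted p under 0.05 and with DESeq2 1 in DPre and none in the others. The median of the 20 was -0.13 in DPbla and -0.02 in DPre, against -0.0028 and -5.4e-05 over all genes tested. Lck, which encodes the kinase the coreceptors carry, was not called in any of them.

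Of 24 regulators known to act on the coreceptor genes, 2 of the 23 tested were called in DPbla and 2 of 24 in DPre, all higher in cKO, against 2.96% and 1.75% of all genes. Runx3 is also a marker that named CD8SP cells. In DPre it was at 10.1 and 8.56 CPM in control and 17.6 and 18.2 CPM in cKO (log2 fold change 0.99, SE 0.16, edgeR adjusted p = 0.00753), and in DPbla at 9.33 and 12.6 against 21.6 and 24.1 CPM (1.09, adjusted p = 0.00379). In DPsel it was at 62.9 and 62.7 against 117 and 96.4 CPM (0.77, adjusted p = 0.0240). The summed level of the 9 CD8SP markers, Runx3 included, was also higher in cKO in these stages. It was 71.8 and 56.4 CPM in control and 180.2 and 144 CPM in cKO in DPre, 87.1 and 121 against 255 and 336 CPM in DPbla, and 197 and 157 against 308 and 250.4 CPM in DPsel. Of the 9 markers, 2 or 3 reached 5 CPM in a DPbla or DPre library and 0 to 2 had no UMI, and the part of CD8SP cells or their RNA in the Runx3 values was not tested. In CD8SP cells, where Runx3 was highest, the effect was 0.86 lower than in DPre (-0.86, SE 0.18, edgeR adjusted p = 0.0185). The median of the 24 regulators in DPre was 0.06, against -5.4e-05 over all genes tested.

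Notch1, the receptor of early T cell commitment, was the other regulator called. It was at 68.0 and 56.3 CPM in control DPre cells and 115 and 108 CPM in cKO DPre cells (log2 fold change 0.89, SE 0.12, edgeR adjusted p = 0.00154), and the value in DPbla was 0.55 (adjusted p = 0.00942). The summed level of the 10 DN markers was higher in both cKO libraries too, at 127 and 101 CPM in control and 162 and 131 CPM in cKO in DPre and at 169 and 125 against 214 and 191 CPM in DPbla, and its part in the Notch1 values was not tested. In the sum of DP cells, with 4 of 24 regulators called against 5.91% of all genes, the DNA methyltransferase Dnmt1 was also higher (0.54) and the chromatin organizer Satb1 lower (-0.32). The other regulators tested in DPre, among them Runx1, Cbfb, Gata3, Bcl11b, Ets1 and Ikzf1, were not called by edgeR. DESeq2 called 3 regulators in DPre, the third being the chromatin remodeller Chd4 (0.35, edgeR adjusted p = 0.0730). Zbtb7b stood at 0.841 to 1.83 CPM in DPre and was not called there.

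Genes near the members were taken from the annotation within 200 kb. Around Cd8b1 and Cd8a 21 other genes are annotated, of which 13 were in the files and 7 passed the filter on low counts in DPre. Of these 7, 2 were called, both lower in cKO, against 1.75% of all genes called in DPre. In DPbla 0 of 7 and in DPsel 0 of 5 were called by edgeR or by DESeq2, with 2 at an unadjusted p under 0.05 in each and medians of -0.025 and 0.026. Krcc1, 37469 bases before Cd8b1, was at 116 and 104 CPM in control and 72.4 and 70.8 CPM in cKO (log2 fold change -0.58, SE 0.11, edgeR adjusted p = 0.0141). Rmnd5a, which encodes a subunit of a ubiquitin ligase and lies 9461 bases beyond Cd8a on the other strand, was at 1159 and 957 CPM in control and 746 and 705 CPM in cKO (-0.50, SE 0.10, adjusted p = 0.0216).

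The non-coding RNA Gm44175, which lies between Cd8b1 and Cd8a and was a leading gene of DPre clusters, was at 272 and 294 CPM in control and 256 and 208 CPM in cKO (-0.25, adjusted p = 0.311). Chmp3, the furthest of the tested genes on the Cd8a side, was at 76.9 and 74.1 CPM in control and 72.2 and 74.8 CPM in cKO (log2 fold change 0.00, SE 0.10, edgeR adjusted p = 0.999). The median over the 7 tested genes was -0.34, against -5.4e-05 over all genes tested in DPre. Around Cd4 38 other genes are annotated, 28 were in the files and 20 were tested in DPre. Of these, P3h3 (1.24, edgeR adjusted p = 0.0236, at 4.05 to 13.5 CPM) and Grcc10 (0.41, adjusted p = 0.0370) were called, both higher in cKO, against 1.75% of all genes in DPre. The median over the 20 was 0.06. In DPbla, where Cd4 itself was called, 2 of 20 were called against 2.96% of all genes, namely Ptms, lower in cKO (-0.63, edgeR adjusted p = 0.00283), and Grcc10, higher (0.47, adjusted p = 0.0181). In the sum of DP cells 6 of 22 were called against 5.91%, 4 higher and 2 lower.

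**Figure D5:**
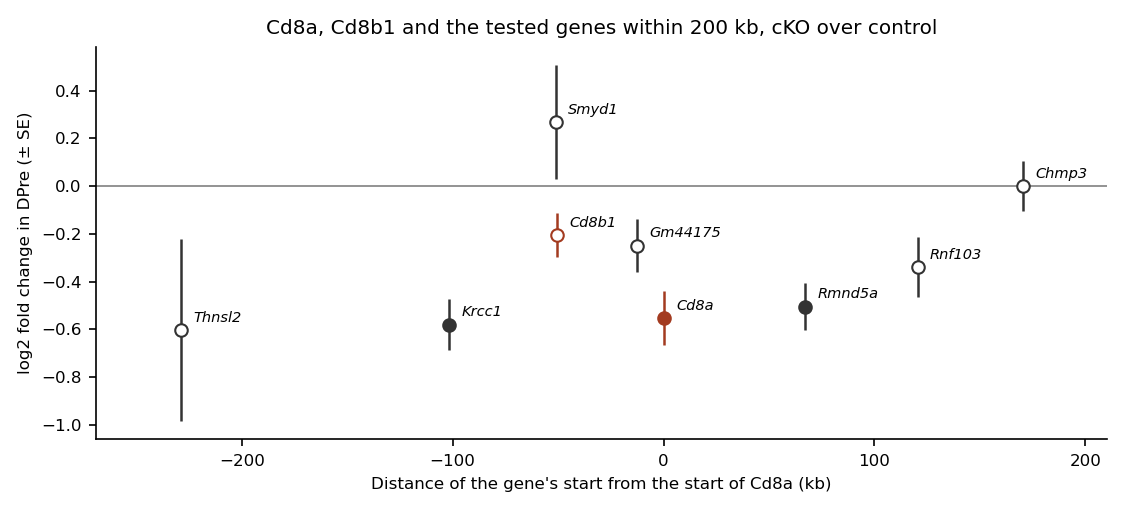
Genotype effect in DPre (vertical axis, log2 fold change of cKO over control, with bars of 1 SE) of Cd8a, Cd8b1 (red) and the 7 other tested genes within 200 kb, by the distance of each gene's start from the start of Cd8a (horizontal axis, kb), with filled points for an adjusted p under 0.05. Cd8a (-0.55), Krcc1 (-0.58) and Rmnd5a (-0.50) are filled, and Chmp3 lies at 0.

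The pattern of each coreceptor over the cell clusters was compared with that of 6234 other genes, as Pearson's r of log2(CPM + 5) over 20 clusters, each the mean of the 4 libraries. Cd8b1 was the gene most like Cd8a (r = 0.99). Other genes with patterns like that of Cd8a were Mef2a (0.93), Ccnd3 (0.91) and Sla (0.91). For Cd8b1 they included Dnajc15 (0.93), Mef2a (0.93) and Ntrk3 (0.91). For Cd4 the most alike were Pip4k2a (0.95), F13a1 (0.95), Sit1 (0.94), Usp33 (0.94) and Klf7 (0.93), with Cd8a at 0.76 and Cd8b1 at 0.79. Clusters of the same libraries share depth and background RNA, so these values are a description.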

How the data were processed

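Thymocytes of 2 control and 2 cKO mice were profiled with 10x Genomics 3′ v3 kits. The authors aligned the reads to GRCm38 (mm10) with Cell Ranger 6.1.1 and deposited raw UMI counts per gene and cell, with no normalization, for cells of at least 500 UMIs. Cells with under 200 genes, over 10% mitochondrial UMIs or in the outer 2.5% of UMI totals at either end were removed, as were the 5% of highest Scrublet doublet score. Cells were clustered with scanpy 1.11.5 (3000 variable genes without the members, centred per library, 30 components, 20 neighbours, Leiden resolution 1) and named from marker lists that hold no coreceptor gene. The rules that left mixed or shallow clusters unnamed were set after the clusters were seen.

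Counts summed per library and stage, of at least 30 cells in each library, were tested with edgeR 4.0.16 (TMM, filterByExpr, quasi-likelihood F test, genotype as the only term, Benjamini-Hochberg adjustment over the stage). The SE is the fold change over the root of F. The interaction was fitted with library, stage and genotype by stage. DESeq2 1.42.0, other filters, cluster settings and left-out libraries were alternatives. Ratios and shares, 1 value per library, were compared with exact permutation tests, with exact binomial and Wilson 95% intervals that cover counting error only. The members and lists were chosen with earlier results of these data known. Named genes were the members, Tox4, list and neighbour genes called in a stage (at most 5 per list by adjusted p) and the 5 of highest r per member among genes of at least 20 CPM; Lck, Gm44175, Chmp3, Zbtb7b and the regulators not called were named after their values were seen. A gene that this rule would name is not reported here. The edgeR test was also run on simulated counts for DPbla and DPre.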

Additional observations from a re-analysis of the deposited data

Results flagged for a closer look

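The genotype effect differed between stages by the edgeR interaction test for 5 of 20 genes named here, against 2.84% of all genes, and most of the 20 were named because they were called in a stage. Cd4 (adjusted p = 0.000696) had a lower effect in DPbla than in DPre by 0.38 on the log2 scale (-0.38, SE 0.08, adjusted p = 0.0209). That difference was -0.20 with equal cells per cluster (adjusted p = 0.595) and was not called without control 1 (0.240), cKO 1 (0.0895) or cKO 2 (0.579). Runx3 (adjusted p = 0.00200) was higher in cKO in DPbla, DPre and DPsel, and its effect in CD8SP was 0.86 lower than in DPre. Of the genes near Cd4, Ptms was flagged with an adjusted p of 0.000392, Cdca3 with 0.000825 and Tpi1 with 0.00600. Ptms was at 792 and 706 CPM in control DPbla cells and 470.3 and 461 CPM in cKO DPbla cells (log2 fold change -0.63), the same direction as Cd4 there. Cdca3, a cell cycle gene, was at 27.7 and 36.4 CPM in control CD8SP cells and 60.4 and 62.1 CPM in cKO CD8SP cells (0.90), a call that DESeq2 did not make, and the summed level of the 12 markers of dividing DPbla cells moved with it (984 and 1330.3 CPM in control, 1782 and 1726 CPM in cKO). Its effect in DPbla was lower than in DPre by 0.75 (-0.75, SE 0.15, adjusted p = 0.00963). Tpi1, a glycolytic enzyme, had an effect in CD8SP that was 0.84 lower than in DPre (-0.84, SE 0.20, adjusted p = 0.0454). The mix of clusters within DPbla moved with the genotype too, and the part of dividing cells in these differences was not tested.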

How the results depend on the processing

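Cd8a was lower in cKO in all 18 alternatives in DPbla, DPre and DPsel. The DPbla calls were weaker for Cd4 at a mitochondrial limit of 5% (-0.44, edgeR adjusted p = 0.103) or 20% (-0.40, adjusted p = 0.0575), with no removal of extreme UMI totals (-0.41, adjusted p = 0.0982) and with equal cells per cluster (-0.29). They were weaker for Cd8b1 at a limit of 5% (-0.47, adjusted p = 0.128), at cluster resolution 1.5 (-0.47, adjusted p = 0.0552) and with equal cells per cluster (-0.37). Cd8a in DPre missed the threshold at a limit of 20% (-0.54, adjusted p = 0.0517). Leaving out 1 library at a time gave -0.57 to -0.34 for Cd4, -0.82 to -0.51 for Cd8a and -0.61 to -0.37 for Cd8b1 in DPbla, and -0.73 to -0.35 for Cd8a in DPre. For the stage dependence it gave adjusted p-values of 0.00342 to 0.0995 for Cd4, 0.00138 to 0.796 for Cd8a and 0.00451 to 0.859 for Cd8b1.

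The number of genes called in DPbla (321) became 631 with no filter on low counts, 1142 with the replicate block, 48 at a limit of 5%, 84 with no removal of extreme UMI totals, 91 with equal cells per cluster and 21 to 515 without 1 library (21 without cKO 2, 89 without cKO 1, 515 without control 2). In DPre (206) it became 627 with no filter, 1079 with the block, 72 at the limit of 5% and 63 to 346 without 1 library (63 without cKO 2, 122 without cKO 1, 346 without control 1). The cause was not tested.

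Values that changed sign were all of results not called with every library in the fit. Leaving out 1 library at a time turned the sign of Cd4 in DPre (-0.19 to 0.018, above 0 without cKO 1) and in CD8SP (-0.20 to 0.0036, above 0 without control 1), and of Cd8a in CD4SP (-0.78 to 0.38, above 0 without control 1 and called without control 2). It turned Cd8b1 in CD4SP (-0.33 to 0.47, with -0.041 without cKO 2), and Tox4 in DN (-0.89 to 0.13, with 0.086 without cKO 1), DPbla (-0.22 to 0.0053, with 0.0042 without control 2) and CD8SP (-0.52 to 0.26). In CD4SP a mitochondrial limit of 5% turned Cd4 (-0.11), Cd8b1 (-0.028) and Tox4 (0.22), and Cd8b1 also turned with no doublet removal (-0.090) and with the members among the variable genes (-0.0027).

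Control and cKO libraries share the replicate numbers 1 and 2 and the study describes 2 pairs of mice, but no label ties a number to a pair, litter or day, so the replicate block is only an alternative. Deviations from the group means correlated between libraries of the same number with r of 0.101 to 0.274 over the stages, across genes. With the block, Cd8a was called in DPbla (-0.67, edgeR adjusted p = 1.9e-12), DPre (-0.54, 6.0e-11), DPsel (-0.46, 9.9e-07) and DN (-0.94, 0.00262), Cd8b1 in the sum of DP cells (-0.32, 0.000111) but not in DPre (-0.20, 0.0506), and Cd4 in the sum (-0.24, 0.0146).

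With a mitochondrial limit of 5%, DN was not tested because its cluster stayed unnamed, as it also held erythroid markers, and CD8SP because a library had under 30 such cells. The ratio and the share in DPre kept their direction in every alternative run. The low-UMI cluster counted as DPbla, equal cells per cluster for the stage dependence, and the members among the variable genes for the ratio and share were chosen after seeing the data.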

Other observations

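A cluster of 744 cells led by Xcl1, Tnfrsf9, Nr4a1, Tnfrsf4 and Nr4a3, genes known to follow a strong TCR signal, was given no stage name and took 1.94% to 2.73% of the kept cells of a library. It held 196 and 179.6 CPM of Cd4 in control and 139 and 220.0 CPM in cKO. Its Cd8a level was 341 and 263 CPM in control and 251 and 198 CPM in cKO, and its Cd8b1 level 358 and 276 CPM against 276 and 237 CPM. Cd8a and Cd8b1 were thus at or near the B cell background in these cells, with 0.834 to 0.954 Cd8a UMIs per Cd8b1 UMI.

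The cluster of 1680 droplets with few UMIs and RNA of dividing cells held 654 and 618 CPM of Cd8a in control and 420 and 343 CPM in cKO. Cd8a was lower in both cKO libraries in B cells and macrophages too, so these droplets are not read apart from free RNA. Cd8b1 in these droplets was 642 and 675 CPM in control and 704 and 455 CPM in cKO, and here the groups overlapped. Counted as DPbla, they left the DPbla fold change of Cd8a at -0.69 (edgeR adjusted p = 0.0130). No test was made of these droplets alone.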
